A study of Mus musculus with 4 samples.

Results

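Megakaryocyte-lineage barcodes of mouse bone marrow were compared between hematopoietic S100a8 knockout and control animals. The members were chosen by their measured Pf4 and Itga2b counts. A barcode was a member when it held 2 or more Pf4 UMIs and 1 or more Itga2b UMIs, among barcodes with 200 or more genes and at most 10% mitochondrial UMIs. UMIs are counted transcript molecules. The rule found 64 members among 18817 bone marrow barcodes that passed these filters, and the series holds 43059 barcodes in all. Of the members, 38 of 10853 came from the KO library and 26 of 7964 from the WT library. The KO mice were S100a8 fl/fl with 1 Vav-Cre allele (Vav-Cre+/-), and the WT mice were S100a8 fl/fl without Cre (Vav-Cre-/-). The floxed allele is therefore shared by both groups, and Vav-Cre acts throughout the hematopoietic system rather than in megakaryocytes alone. All mice were tumor-free, and their age and sex are not stated in the labels. CD45-positive bone marrow cells of 3 mice were pooled into 1 droplet library for each genotype.

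With 1 library per genotype there was no replicate and no test. Intervals are given at 95% and reflect counting error alone, not the spread between mice, libraries or cells. Megakaryocytes are the large polyploid cells of bone marrow that release platelets, and they arise from stem and progenitor cells that carry Kit and Gata2. As they mature they fill alpha granules with chemokines and adhesion proteins, build platelet receptors, and assemble the actomyosin and tubulin skeleton from which platelets are made. S100a8 and S100a9 encode the partner chains of calprotectin, which is held above all by neutrophils.

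Pf4 and Itga2b, which chose the members, encode the alpha granule chemokine platelet factor 4 and the alpha IIb chain of the fibrinogen receptor. Ppbp, given with them as a marker but not used by the rule, encodes another platelet chemokine. In the GENCODE M21 annotation of GRCm38, Pf4 (chromosome 5, 90772435 to 90773383, plus strand) and Ppbp (chromosome 5, 90768518 to 90770063, plus strand) are neighboring protein-coding genes 2371 bases apart. Itga2b lies on chromosome 11 (102453297 to 102470122, minus strand) and S100a8 on chromosome 3 (90668978 to 90670035, plus strand). The 250 bases before the RefSeq start of Pf4 and Ppbp are shown because the neighbors had different patterns across the members, beside those of Gp9, which encodes a chain of the von Willebrand factor receptor. The windows are from build GRCm38.p6, plus strand, at chr5:90772185-90772434 for Pf4, chr5:90768268-90768517 for Ppbp and chr6:87777820-87778069 for Gp9. Capitals mark a match to the ETS-type strings AGGAAG or CGGAAG on either strand.
Pf4: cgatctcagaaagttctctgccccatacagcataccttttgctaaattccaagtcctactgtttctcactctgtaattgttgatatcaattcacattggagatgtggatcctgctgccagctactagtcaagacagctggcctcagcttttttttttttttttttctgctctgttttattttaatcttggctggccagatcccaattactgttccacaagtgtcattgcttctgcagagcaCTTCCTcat
Ppbp: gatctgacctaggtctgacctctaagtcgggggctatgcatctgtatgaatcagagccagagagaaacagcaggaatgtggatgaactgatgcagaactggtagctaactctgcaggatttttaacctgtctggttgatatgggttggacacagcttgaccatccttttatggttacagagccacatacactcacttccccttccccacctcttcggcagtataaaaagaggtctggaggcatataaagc
Gp9: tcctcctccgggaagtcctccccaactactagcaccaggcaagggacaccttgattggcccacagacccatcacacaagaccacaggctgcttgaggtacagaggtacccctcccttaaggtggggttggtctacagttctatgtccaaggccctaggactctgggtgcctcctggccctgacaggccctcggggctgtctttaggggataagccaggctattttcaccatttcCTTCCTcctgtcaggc
The ETS-type strings occurred 1 time in the Pf4 window, 1 time in the Gp9 window and 0 times in the Ppbp window, and in 39.2% of 32851 windows of the same length before RefSeq starts. The GATA-type strings AGATAA and TGATAA, searched on both strands, occurred in none of the 3 windows and in 16.6% of all windows. No match overlapped another.

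Members were 0.350% of KO barcodes (exact Clopper-Pearson interval 0.248 to 0.480) and 0.326% of WT barcodes (0.213 to 0.478), a ratio of 1.07 whose interval (0.652 to 1.76) spans 1. The KO library held more neutrophil barcodes, and among barcodes with under 5% of UMIs from neutrophil genes (S100a8 left out of both sums) the members were 34 of 3150 in KO (1.08%, 0.749 to 1.51) and 20 of 3878 in WT (0.516%, 0.315 to 0.795). That ratio was 2.09 (1.21 to 3.63). The share of megakaryocyte-lineage barcodes thus depended on whether neutrophils were counted in the denominator.

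The rule was a threshold on few UMIs. Just inside it, 9 KO and 6 WT members held 2 to 4 Pf4 UMIs. Just outside it, 57 KO and 23 WT barcodes held 2 or more Pf4 UMIs but no Itga2b, and 18 KO and 12 WT barcodes held Itga2b with a single Pf4 UMI. The barcodes without Itga2b were shallow, with medians of 1509 UMIs in KO and 1286 in WT. The KO ones included 32 with 5% or more neutrophil UMIs, and the WT ones 6.

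Most but not all markers of the lineage were higher in members than in other barcodes. All 16 markers of the megakaryocyte list had UMIs in the members of both libraries. Set against all other barcodes of the same library, Pf4 was 911-fold higher in KO members and 1030-fold higher in WT members, and Itga2b was 88.5-fold and 73.4-fold higher, which the rule fixes. Of the genes it did not use, Gp6, the platelet collagen receptor, was 916-fold higher in KO and 430-fold higher in WT members. Treml1, an alpha granule receptor, was 568-fold higher in KO and 737-fold higher in WT members. Vwf, the von Willebrand factor gene, was 127-fold and 141-fold higher in KO and WT members. Most members held no UMI of any given one of these genes. Gp6 had 31 UMIs in 8 of 38 KO members and 14 UMIs in 3 of 26 WT members. Only 0.0277% of the other KO barcodes and 0.0252% of the other WT barcodes held a Gp6 UMI, so its folds are rough. Treml1 was found in 12 KO and 12 WT members, and Vwf in 15 and 10. The deepest WT barcode held 78.6% of the WT UMIs of Gp6, 76.0% of those of Treml1 and 58.8% of those of Vwf. Among transcription factor markers, Gfi1b was 12.5-fold and 4.43-fold and Gata1 6.04-fold and 6.99-fold higher in KO and WT members. Nfe2, another transcription factor gene of the lineage, stood at 0.996 and 1.07 times its level in the other barcodes of KO and WT. Cavin2, a caveolar protein gene, measured 469 CPM for KO members and 475 CPM for WT members (CPM is the count of UMIs scaled to the summed UMIs of the members, in parts of 1e+06). Of 3892 genes compared, 722 (18.6%) were at least 2-fold higher in members than in other barcodes in both libraries. Levels in the members of both libraries are given side by side, and no test was made of them.

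Depth differed widely among members. A KO member held between 632 and 84281 UMIs with a median of 10729, against 536 to 192765 with a median of 12228.5 in WT. The median over all kept barcodes was 2839 in KO and 2354.5 in WT. No WT barcode was deeper than the deepest WT member, and 2 KO barcodes were deeper than the deepest KO member. The deepest member alone supplied 14.7% of all member UMIs in KO and 36.8% in WT, so the summed levels below lean on it, more in WT than in KO. The 3 members with the most Pf4 held 67.1% of the Pf4 UMIs in KO and 86.4% in WT. The libraries shared 33 barcode sequences, and 1 member barcode was among those found in both.

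**Figure D1:**
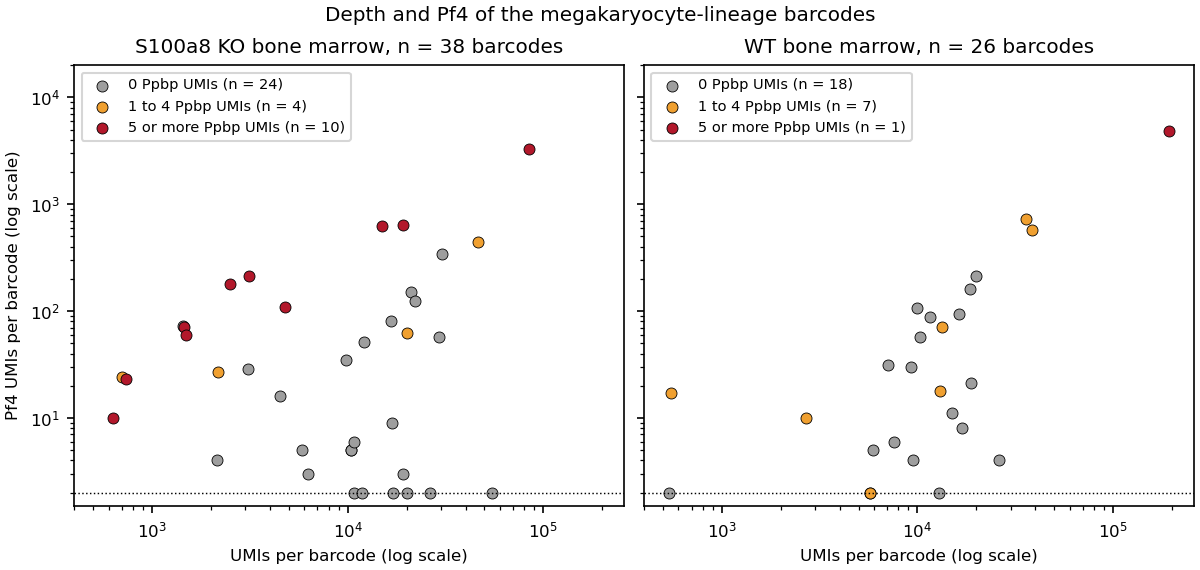
Pf4 UMIs against total UMIs per barcode (both log scales) for the 38 KO members (left) and 26 WT members (right), colored by Ppbp UMIs, with the rule's limit of 2 Pf4 UMIs as a dotted line. Most barcodes with 5 or more Ppbp UMIs are shallow KO members, and the deepest barcode of all, at 192765 UMIs, is a WT member.

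Members lay along a range from progenitor-type to platelet-type expression. At one end were barcodes with Kit, the stem cell factor receptor gene, or Gata2, a transcription factor gene of early progenitors. In KO, Kit was found in 8 of 9 members with 2 to 4 Pf4 UMIs and in 12 of 29 with 5 or more. In WT, it was found in 2 of 6 and in 16 of 20. Gata2 was found in 7 of 9 and 13 of 29 in KO, and in 4 of 6 and 18 of 20 in WT. Few Pf4 UMIs went with these genes in KO but not in WT. At least 1 UMI of Kit or Gata2 was found in 25 of 38 KO and 22 of 26 WT members. Only 3 of those KO members and 5 of those WT members also held a Ppbp UMI. At the other end were barcodes rich in Ppbp. Mki67, a proliferation marker, had a UMI in 20 of 38 KO and 18 of 26 WT members. Tubb1, the platelet beta-tubulin gene, had UMIs in only 2 KO members and in no WT member.

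Members with 5 or more Ppbp UMIs were 10 of 38 in KO (26.3%, 13.4 to 43.1) and 1 of 26 in WT (3.85%, 0.0973 to 19.6), and these intervals overlap. Members with 1 to 4 Ppbp UMIs were 4 in KO and 7 in WT, and those with none were 24 in KO and 18 in WT. The 10 KO members held between 6 and 196 Ppbp UMIs. Of the 10, 7 held between 632 and 4798 UMIs in total, and the median was 2816.5. The single WT member was the barcode of 192765 UMIs, with 29 Ppbp UMIs. Over all kept barcodes, members or not, 12 in KO and 3 in WT held 5 or more Ppbp UMIs.

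The Ppbp-rich KO members differed from the rest of the KO members in genes that the rule and this division did not use. Kit had a UMI in none of the 10 Ppbp-rich KO members, against 18 of the 24 KO members without Ppbp. Gata2 had one in 1 of 10 and in 17 of 24. The 10 were shallower, with a median of 2816.5 UMIs against 11915.5 in the 24, which leaves fewer of them able to show a UMI. In summed UMIs Kit stood at 0 CPM in the 10 and 215 CPM in the 24, and Gata2 at 37.6 and 285 CPM. The part of depth in these counts was not tested. Gp6 had a UMI in 7 of 10 and in none of 24, and Clec1b, a podoplanin receptor gene, in 7 of 10 and 5 of 24. The median share of mitochondrial UMIs was 0.336% in the 10, with a range of 0.0319% to 6.01%, and 1.89% in the 24. Gata2 and Clec1b are named here after their values were seen. In WT members without Ppbp, Kit was found in 14 of 18, Gata2 in 17 of 18 and Gp6 in none. In the 7 WT members with 1 to 4 Ppbp UMIs, Kit was found in 3, Gata2 in 4 and Gp6 in 2. The single Ppbp-rich WT member held 8 Kit, 10 Gata2 and 11 Gp6 UMIs. The absence of Kit from Ppbp-rich members was thus seen in KO only.

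**Figure D2:**
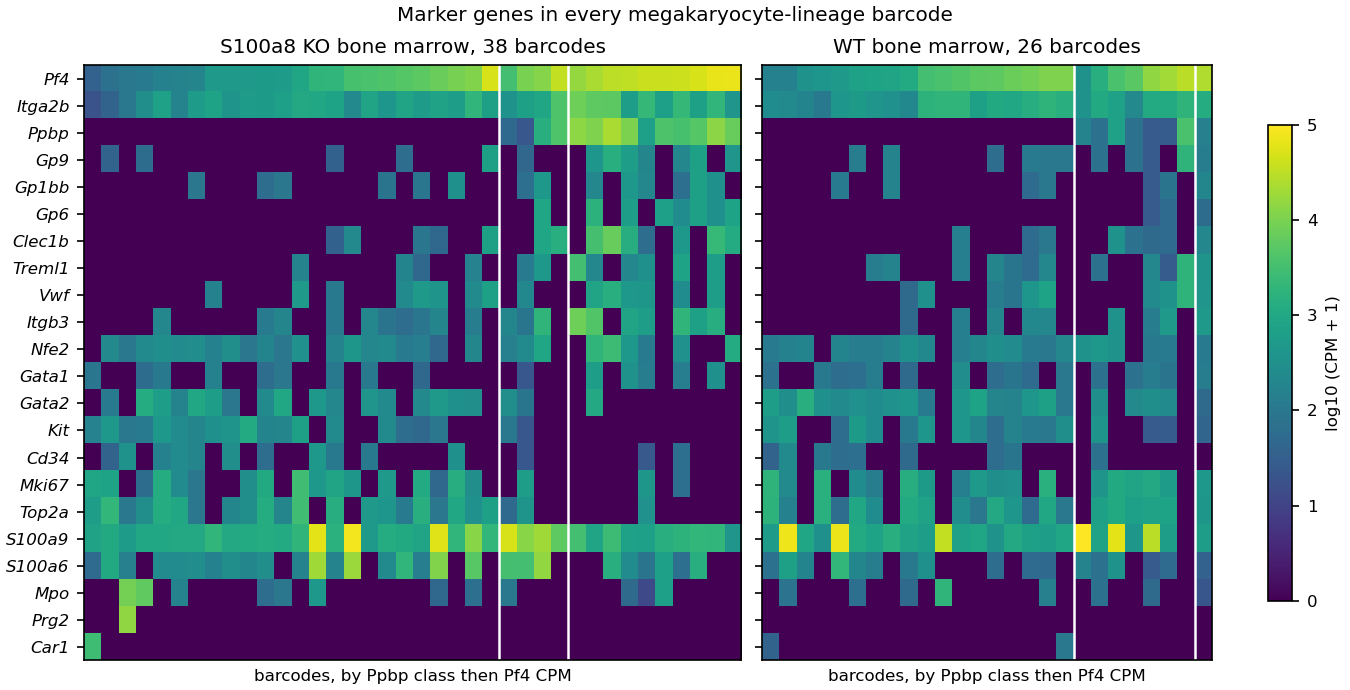
Each column is 1 barcode and each row 1 gene, with color giving log10 (CPM + 1) in KO members (left) and WT members (right). White lines part barcodes with 0, 1 to 4, and 5 or more Ppbp UMIs, and the KO block at the right holds Gp9, Gp6 and Clec1b with no Kit.

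Some members fit the label poorly. More UMIs of another cell type's marker list than of the megakaryocyte list were held by 20 of 38 KO members (19 for neutrophil and 1 for erythroid genes) and by 10 of 26 WT members (8 for neutrophil, 1 for erythroid and 1 for B-lineage genes). The part of free neutrophil transcript in these counts was not tested. In KO, a barcode of 54367 UMIs held 2 Pf4 and 1 Itga2b UMIs beside 153 Car1 and 17 Klf1 UMIs, which are erythroid genes. Another KO barcode held 2 Pf4 and 2 Itga2b UMIs beside 293 Prg2 and 182 Mpo UMIs, genes of eosinophil and neutrophil granules. In 1 more KO barcode 2 Pf4 UMIs stood beside 105 Mpo UMIs and 45 of Mcpt8, 30 of Cpa3 and 20 of Ms4a2, basophil and mast cell genes. A KO barcode of 46184 UMIs held 448 Pf4 UMIs beside 75 UMIs of Ebf1 and 22 of Cd79a, which are B-lineage genes. Neutrophil genes made up 5% or more of the UMIs in 4 KO members, up to 13.3%, and in 6 WT members, up to 38.5%. Basophil and mast cell genes had a summed level of 0.0686% of KO and 0.0214% of WT member UMIs. The KO barcode with 105 Mpo UMIs held 80.4% of the KO UMIs of Mcpt8, 61.2% of those of Cpa3 and 90.9% of those of Ms4a2. These barcodes meet the rule and were kept.

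S100a8 was not detected in KO members. KO members held 0 S100a8 UMIs, against 5731 in WT members (10934 CPM), at least 2093-fold lower in KO when KO is set to a floor of 3 UMIs. Each of the 26 WT members held between 2 and 1590 S100a8 UMIs with a median of 10, and no KO member held any. Over the whole library, KO held 7 S100a8 UMIs and WT 2301870. In WT, 97.7% of the other barcodes also had an S100a8 UMI, and the level in members was 0.153 of that in other barcodes. The part of free neutrophil transcript in the WT members' S100a8 was not tested. Among members under 5% neutrophil UMIs the KO level was at least 93.0-fold lower, with 237 UMIs left in WT.

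S100a9 measured 7206 CPM for KO members and 8835 CPM for WT members, a ratio of 0.816 (0.782 to 0.851), while the ratio in all other barcodes was 1.60. The median member held 13 S100a9 UMIs in KO and 12 in WT. The highest KO members held 1185, 976 and 590 of them, and the highest WT members 1234, 1148 and 948. All of those held more UMIs of the neutrophil list than of the megakaryocyte list, so the summed S100a9 levels lean on a few such barcodes. S100a6, a calcium-binding protein gene of the same family, measured 1526 CPM for KO members and 135 CPM for WT members, 11.3-fold higher (8.84 to 14.6), with UMIs in 28 of 38 and 17 of 26 members. It was 4.64-fold higher in KO among the other barcodes and 4.45-fold higher among barcodes with Kit and Cd34. The KO members with the most S100a6 UMIs held 232, 153, 151 and 81 of them, and the highest WT member 34. Each of these barcodes held more UMIs of the neutrophil list than of the megakaryocyte list. The WT barcodes with 2328, 2197, 1822 and 1754 UMIs of the neutrophil list held 1, 34, 9 and 1 S100a6 UMIs. The part of neutrophil transcripts in the S100a6 difference was not tested. S100a11 was 1.92-fold higher (1.43 to 2.61) in KO members and S100a4, with 32 KO and 3 WT UMIs, 9.74-fold higher (3.05 to 49.7). Of 5 other S100 genes with at least 50 UMIs over all members, 2 were at least 1.5-fold higher in KO and none lower. Over all such genes 9.35% were higher and 6.62% lower. S100a4 was under that limit and was not counted.

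Across all genes, 3895 had at least 50 UMIs over the members of both libraries. Of these, 364 (9.35%) were at least 1.5-fold higher and 258 (6.62%) at least 1.5-fold lower in KO, around a median log2 ratio of 0.01. Counts over lists use these measured genes, and genes under 50 UMIs are named with their own UMIs and enter no count. Without the deepest barcode of each library, 319 of 3014 (10.6%) were higher and 164 (5.44%) lower. Of the genes measured both ways, 189 were higher in both and 66 lower in both, which is 51.9% and 25.6% of the calls made with all members. With the same genes, 1.52% were higher and 1.86% lower in all other barcodes. In barcodes with Kit and Cd34 (254 in KO and 145 in WT) the shares were 0.938% and 0.912%. The summed UMIs behind these shares were 4864488 in KO and 2043303 in WT for Kit and Cd34, against 574135 and 524138 for the members, so fewer UMIs and fewer barcodes stood behind the members' ratios.

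The genes that were highest in KO included platelet and contractile genes, and genes held by single barcodes. Alox12, which encodes the platelet 12-lipoxygenase, had 51 UMIs in 9 KO members and 1 UMI in WT. Tpm2, a tropomyosin gene, had 47 UMIs in KO and 4 in WT, a ratio of 10.7 (3.92 to 41.0), with 63.8% of the KO UMIs in 1 barcode. Cald1, the caldesmon gene, and Mylk, the myosin light chain kinase gene, were 3.83-fold (1.89 to 8.57) and 3.72-fold (2.04 to 7.22) higher. Tsc22d1, which encodes a leucine zipper protein, was 3.84-fold higher (2.69 to 5.59). Mt1, a metallothionein gene, was 5.20-fold higher (2.86 to 10.2), with 63.5% of its KO UMIs in 1 barcode, and Gatm, for a creatine synthesis enzyme, was 4.14-fold higher (2.34 to 7.80). Egr1, an immediate early factor, was 3.65-fold higher (2.01 to 7.10) and 2.93-fold in the other barcodes, and Plekha2 was 3.65-fold higher (1.79 to 8.19). Mpo, the myeloperoxidase gene, had 300 UMIs in KO and 14 in WT, with 60.7% of the KO UMIs in the barcode with Prg2, and its log2 ratio was -0.18 among members with 5 or more Pf4 and 2 or more Itga2b UMIs.

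The genes that were lowest in KO rested in large part on the deepest WT barcode. Hist1h1d, a linker histone gene, had 15 UMIs in KO and 120 in WT, with 85.0% of the WT UMIs in that barcode, and its log2 ratio of -3.13 was -0.83 without the deepest barcodes. Hist1h1b was 106 CPM in KO against 479 CPM in WT (log2 -2.17, and -0.54 without them), Hist1h1e at 38.3 and 177 CPM (log2 -2.21, and -1.27), and the histone H2A genes Hist1h2ab and Hist1h2ae at log2 -1.55 and -1.51 (-0.62 and -0.54). Histone H2A genes are closely similar in sequence, and the part of reads shared between them in these counts was not tested. Ltbp1, a latent TGF-beta binding protein gene, was 34.8 CPM in KO against 107 CPM in WT (log2 -1.62, and -0.56 without the deepest barcodes), and its log2 ratio was 1.09 with every cell weighted equally. Jun, an AP-1 subunit gene, was 66.2 CPM in KO against 181 CPM in WT (log2 -1.45, and -1.30 without the deepest barcodes), and Naa16, Rad51ap1 and Ralgapa2 were at log2 -1.41, -1.38 and -1.38 (-0.93, -0.56 and -1.15). Ralgapa2 was at 0.25 with every cell weighted equally, and among members without Ppbp Hist1h2ae was at 0.050.

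**Figure D3:**
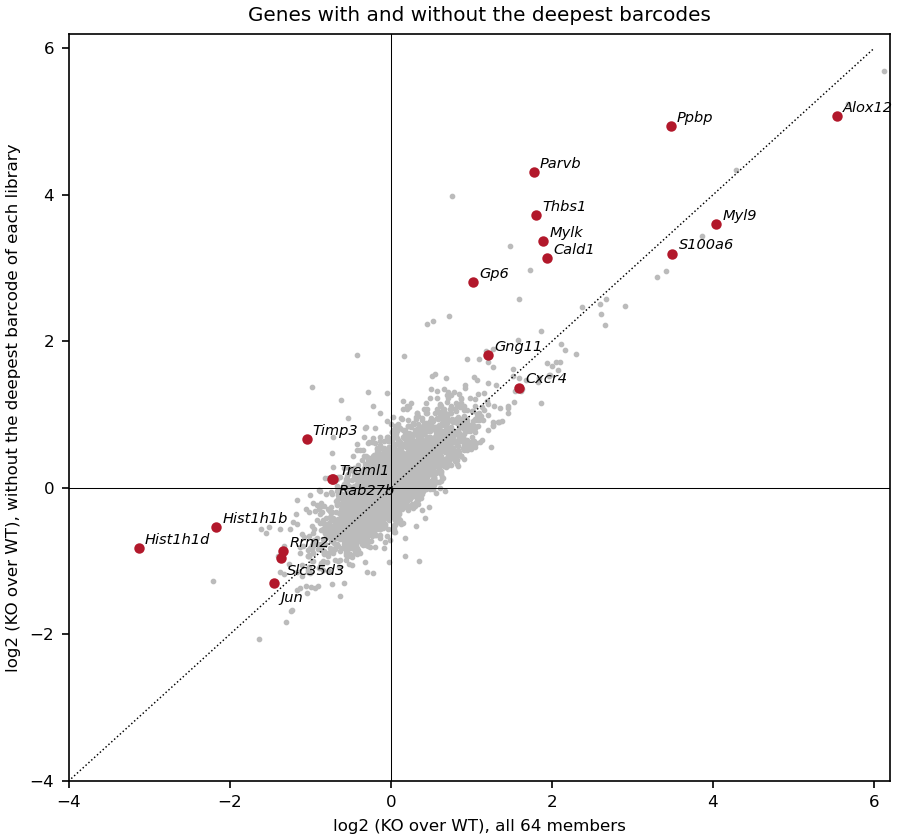
Each point is a gene, with the log2 KO over WT ratio in all 64 members on the x axis and the same without the deepest barcode of each library on the y axis (the dotted line marks equal values). Ppbp, Thbs1 and Parvb lie above the line, Hist1h1d moves to -0.83 on the y axis and Timp3 changes sign.

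Ppbp had 463 UMIs in KO members (806 CPM, 735 to 883) and 38 in WT members (72.5 CPM, 51.3 to 99.5), a ratio of 11.1 (7.98 to 15.9). UMIs were found in 14 of 38 KO and 8 of 26 WT members, and 42.3% of the KO UMIs came from 1 barcode, as did 76.3% of the WT UMIs. The log2 ratio was 3.48 with all members and 4.94 without the deepest barcodes. In the other barcodes the Ppbp ratio was 0.891, from levels of 1.22 CPM in KO against 1.37 CPM in WT. Pf4 itself was 11846 CPM in KO against 13506 CPM in WT, and Itga2b 914 against 992 CPM, both used by the rule.

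Of the other alpha granule genes, Thbs1, the thrombospondin 1 gene, had 126 UMIs in KO and 33 in WT, 3.49-fold higher (2.36 to 5.28). Pdgfb, a platelet-derived growth factor gene under the 50-UMI limit, had 35 and 11 UMIs in KO and WT, 2.90-fold higher (1.44 to 6.34). Timp3, an inhibitor of metalloproteinases, had 97 UMIs in KO and 183 in WT (log2 -1.05), and 84.2% of the WT UMIs came from the deepest barcode. Its log2 ratio was 0.67 without the deepest barcode of each library and 1.81 with every cell weighted equally. Vwf was 185 CPM in KO against 250 CPM in WT, a log2 ratio of -0.44. The alpha granule list had 16 measured genes, of which 3 were higher and 3 lower, against 9.35% and 6.62% over all genes, with a median log2 of -0.10. Under equal weight for each cell 10 of the 16 were higher and none lower, against 19.1% and 16.5%, and the median was 1.11. Without the deepest KO member alone, 2 of 15 were higher and 6 lower, against 10.1% and 8.06%. Dense granule and secretion genes had 13, of which 2 were higher and 3 lower, against 9.35% and 6.62%. With every cell weighted equally 6 were higher and 2 lower, against 19.1% and 16.5%. In that list Slc35d3, a transporter gene of platelet dense granules, stood at log2 -1.37 and Rab27b, a secretion GTPase gene, at -0.73, or 0.13 without the deepest barcodes. Their log2 ratios were 0.0047 and 1.10 with every cell weighted equally.

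Genes of the platelet cytoskeleton were more often higher than lower in KO. Of 34 measured, 11 were at least 1.5-fold higher and 1 lower, against 9.35% higher and 6.62% lower over all genes, with a list median log2 of 0.24 against 0.01. Myl9, the myosin light chain gene, had 54 UMIs in 5 KO members and none in WT members, at least 16.4-fold higher against a floor of 3 UMIs in WT, and 75.9% of its KO UMIs came from 1 barcode. Parvb, a focal adhesion gene, had 135 and 36 UMIs in KO and WT, 3.42-fold higher (2.36 to 5.09). Without the deepest barcodes 10 of 31 genes were higher and 1 lower, against 10.6% and 5.44% over all genes. Among members with a Ppbp UMI, 14 in KO and 8 in WT, 21 of 32 were higher and none lower, against 15.9% and 15.3% over all genes. Among members without a Ppbp UMI, 24 in KO and 18 in WT, none of 22 was higher and 3 were lower, against 10.4% and 6.41%. With every cell weighted equally, 22 of 34 were higher and 2 lower, against 19.1% and 16.5% over all genes. Among members under 5% neutrophil UMIs, 10 of 34 were higher and 2 lower, against 9.61% and 8.01%. More members of a mature type and more transcript in each cannot be told apart in a summed level.

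The counts for receptors and signalling genes moved with the weight given to each cell. In summed UMIs, 1 of 17 adhesion and collagen receptor genes was higher and 1 lower, against 9.35% and 6.62% over all genes. With every cell weighted equally 10 of the 17 were higher and none lower, against 19.1% and 16.5%, with a median log2 of 1.09. Equal weight gives 1 UMI of a shallow barcode a high level, and the lower quartile of UMIs was 3104.75 in KO and 7177 in WT. With cells thinned to 5476 UMIs 1 of 6 of these receptor genes was higher and none lower, against 8.02% and 5.76%, with a median of -0.0065. Gp6, under the 50-UMI limit, had 31 UMIs in KO and 14 in WT, and Treml1 had 64 and 96 (log2 -0.72, or 0.12 without the deepest barcodes and 0.35 with every cell weighted equally). Of 7 agonist and cytokine receptor genes, 1 was higher and 1 lower in summed UMIs, and 5 were higher and none lower with every cell weighted equally. Cxcr4, the CXCL12 receptor gene, was 3.02-fold higher (1.93 to 4.88) with UMIs in 23 of 38 KO and 9 of 26 WT members, and P2ry1, an ADP receptor gene, stood at log2 -0.78, or 0.80 with every cell weighted equally. F2rl2, for the thrombin receptor PAR3, was 146 CPM in KO against 105 CPM in WT and did not pass 1.5-fold. Of 33 platelet signalling genes, 4 were higher and 2 lower in summed UMIs, and 17 were higher and 2 lower with every cell weighted equally (median log2 0.67). With cells thinned to 5476 UMIs, 3 of 7 signalling genes were higher and none lower. Among members with a Ppbp UMI, 12 of 26 were higher and 1 lower, against 15.9% and 15.3% over all genes, and among those without it none of 18 was higher and 5 were lower, against 10.4% and 6.41%. Gng11, a G-protein gamma subunit gene, was 2.30-fold higher (1.78 to 3.01), though at log2 -0.052 among members without Ppbp, while Rap1b, a GTPase gene of integrin activation, was 1444 CPM in KO against 1290 CPM in WT, and Gnaz, a platelet G-protein gene, 115 against 134 CPM. Of 21 transcription factor genes, 3 were higher and none lower in summed UMIs, against 9.35% and 6.62%. The same counts held with every cell weighted equally, against 19.1% and 16.5%. Gfi1b, a repressor needed for megakaryocytes, was 2.07-fold higher (1.33 to 3.29) in summed UMIs, but its log2 ratio was -0.042 with every cell weighted equally and -0.90 with cells thinned to 5476 UMIs. In summed UMIs, Lmo2 and Mef2c stood at log2 0.08 and -0.41. Niche factor genes held 5 measured genes with 1 higher and 1 lower, and Tgfb1 and Angpt1, a ligand for a receptor on stem cells, stood at log2 -0.01 and 0.21.

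**Figure D4:**
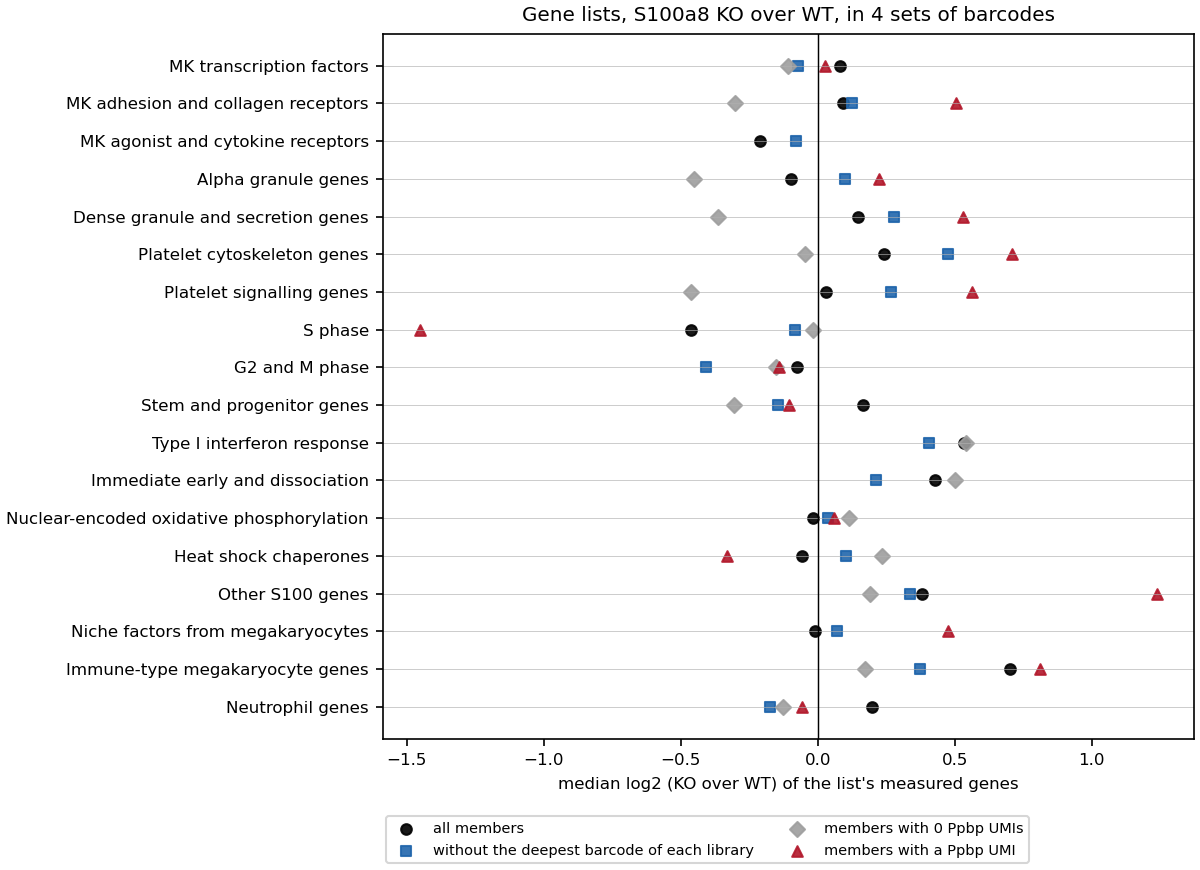
Median log2 KO over WT ratio of each list's measured genes (lists under 5 genes in a set are not drawn), in all members, without the deepest barcode of each library, in members without Ppbp and in members with Ppbp. The platelet cytoskeleton list runs from -0.04 without Ppbp to 0.71 with Ppbp, and the S phase list from -0.02 to -1.45. The members with Ppbp include the WT barcode of 192765 UMIs.

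S phase genes were more often lower than higher in KO, and G2 and M phase genes were so under some of the weightings. Of 32 S phase genes measured, none was higher and 14 were lower in KO, with a median log2 of -0.46, against 6.62% lower over all genes. Without the deepest barcodes 1 of 26 was lower and the median was -0.08. With every cell weighted equally none of 32 was higher and 13 were lower, against 16.5% lower over all genes, with a median of -0.39. Rrm2, for a ribonucleotide reductase subunit, stood at log2 -1.34 with all members and -0.86 without the deepest barcodes. Among members with a Ppbp UMI 14 of 15 S phase genes were lower, against 15.3% over all genes. The deepest WT barcode supplied 192765 of the WT UMIs in that set, and the 7 other WT members 109694. S phase genes made up 0.609% of the UMIs of that barcode and 0.254% of those of the 7. In KO they made up 0.282% in members with 1 to 4 Ppbp UMIs and 0.104% in members with 5 or more. Among members without a Ppbp UMI none of 23 was higher or lower, against 10.4% and 6.41% over all genes. Of 41 G2 and M phase genes 2 were higher and 2 lower with all members, and of 38 without the deepest barcodes none was higher and 9 were lower, against 5.44% lower over all genes. Under equal cell weight 1 of 41 was higher and 18 were lower, against 16.5% lower over all genes, with a median of -0.47. Bub1, a spindle checkpoint gene with 16 UMIs in KO and 29 in WT, stood at log2 -0.99, and Mki67 and Top2a at -0.32 and -0.13. Of 13 stem and progenitor genes 4 were higher and none lower, against 9.35% and 6.62% over all genes. Without the deepest WT member alone 2 were higher and 2 lower, and among members without Ppbp 2 of 12 were higher and 3 lower. Without the deepest barcode of each library 3 were higher and none lower, with a median log2 of -0.14. Kit had 83 UMIs in KO and 65 in WT, a ratio of 1.17 (0.832 to 1.64), and Cd34 had 30 and 11, a ratio of 2.49 (1.21 to 5.51). Of the 30 KO Cd34 UMIs, 7 lay in the barcode with 293 Prg2 UMIs, which fits the label poorly.

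Counts for the interferon and immediate early lists changed with the barcodes kept and the weight given to each. Of 14 type I interferon genes measured, 6 were higher and none lower, against 9.35% and 6.62% over all genes, with a median log2 of 0.53. Without the deepest barcodes 3 of 12 were higher and 1 lower. Weighting every cell equally, 3 of 14 were higher and 1 lower, against 19.1% and 16.5%, with a median of 0.08. Slfn2 was 2.42-fold higher (1.42 to 4.27) and Ly6e, a surface antigen gene, 1.66-fold higher (1.38 to 1.99), against ratios of 1.19 and 0.881 in the other barcodes. Igtp, an interferon gamma-induced GTPase gene of another list, was 5.29-fold higher (2.03 to 17.5) from 29 KO and 5 WT UMIs. With doublet-marked barcodes left out, 4 in KO and 3 in WT, none of 11 type I interferon genes was higher and 2 were lower, against 8.19% and 7.01% over all genes. Of 16 immediate early and dissociation genes 6 were higher and 2 lower, with a median log2 of 0.43. Weighting every cell equally, 4 were higher and 3 lower and the median was -0.06, and with doublet-marked barcodes left out 4 of 13 were higher and 3 lower. Dusp1, Fos and Junb were 4.28-fold (2.47 to 7.87), 3.58-fold (1.92 to 7.18) and 2.56-fold (1.77 to 3.77) higher, and in the other barcodes of the 2 libraries they were 1.39-fold, 1.90-fold and 1.75-fold higher. The log2 ratios in members were -0.21 for Dusp1, -0.49 for Fos and 0.51 for Junb with every cell weighted equally. These genes are known to respond to cell handling, whose part here was not tested.

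Immune genes had few UMIs in members. Of 9 measured genes described for immune-type megakaryocytes, 5 were higher and none lower, against 9.35% and 6.62% over all genes. With doublet-marked barcodes left out 1 of 6 was higher and none lower, against 8.19% and 7.01%, and among members without Ppbp none of 6 was higher or lower. With every cell weighted equally 2 of 9 were higher and 2 lower, with a median log2 of -0.12. Spi1, the PU.1 gene, had 56 UMIs in KO and 8 in WT, and Cd53, a leukocyte tetraspanin gene, had 57 and 13. The levels of both in members were lower than in the other barcodes, at 0.281 and 0.319 of them in KO and 0.0604 and 0.0994 in WT. Neutrophil genes made up 1.41% of member UMIs in KO and 1.77% in WT. Their members did not move together, with Camp and Ngp, secondary granule genes, at log2 -1.63 and -1.23 and Retnlg, a gene of mature neutrophils, at 1.83. Among members under 5% neutrophil UMIs Camp and Ngp were at 0.21 and 0.61. The part of neutrophil transcripts in the immune gene differences was not tested. Few oxidative phosphorylation and heat shock chaperone genes passed 1.5-fold. In the first list none of 73 was higher and 1 was lower, against 9.35% and 6.62% over all genes, and in the second none of 12 passed in either direction. The erythroid gene Car1 had 153 UMIs in KO, all in the single erythroid-type barcode, against 2 in WT. Ddx3y, a Y-linked gene, had 40 UMIs in KO and 19 in WT, so both pools held cells of male mice, in proportions not given in the labels.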

How the data were processed

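Droplet single-cell RNA was measured in CD45-positive bone marrow, 1 library per genotype pooled from 3 mice. The authors deposited unnormalized UMI counts, and per the file headers the matrices come from Cell Ranger version 3.1.0. Cell Ranger 6.1.2, R 4.2.1, Seurat 4.3.0 and the builds GRCm38 and mm10 appear in the submitters' processing notes, which give no step or order. Features with the same symbol were summed, and no gene name was missing. The tumor libraries were not used here.

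Barcodes were kept at 200 or more genes and 10% or less mitochondrial UMIs, and members were those with 2 or more Pf4 UMIs and 1 or more Itga2b UMIs. The UMIs of each library's members were added up and divided by the members' total to give CPM. Genes counted as measured from 50 UMIs in the members of both libraries together, and called at 1.5-fold. A library with 0 UMIs was set to 3 UMIs. Shares carry exact Clopper-Pearson, UMI sums exact Poisson, UMI ratios exact conditional and share ratios Katz log intervals, all at 95%. With 1 library per group no test or p-value was made. The ratios and intervals were tested on simulated summed counts, drawn independently for each gene. That simulation held no single barcodes, so it cannot show how the intervals behave when UMIs gather in a few of them. Doublets were marked with scrublet in scanpy 1.11.5 and kept. The automatic threshold marked 0% of KO barcodes, which was read as a failure, so the highest scores were used there instead (8.85%, a choice made after seeing the data), against 5.31% in WT.

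Genes were named by a rule: S100a8, S100a9, Pf4, Itga2b and Ppbp, the 10 highest and 10 lowest ratios among genes with UMIs in at least 10 members, at least 50 CPM in either library and at least 0.5 of the level in other barcodes, up to 4 genes by ratio and 4 by level from each of 30 lists, and the 15 genes highest over the other barcodes. The text gives a selection. The members, the markers and the lists were chosen with earlier results of these data known. Promoter windows are RefSeq's. The alternatives were other membership, gene and depth limits, doublets left out, other weighting of cells and another scaling total. Leaving out the deepest barcode of each library, of KO or of WT was added after seeing the data. Python 3.11.15, numpy 2.4.6, scipy 1.17.1 and pandas 2.3.3 were used.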

Additional observations from a re-analysis of the deposited data

How the results depend on the processing

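Of 1163 recomputed values of 90 results, 822 stayed within counting error (for counts of genes, within 1.5 times the value given, and for list medians, within 0.2 on the log2 scale), 315 moved further, and in 26 a value past 1.5-fold changed sign. The ratio of shares was 2.09 against barcodes under 5% neutrophil UMIs. At least 1.5-fold higher and lower in KO were 222 and 137 genes in members without Ppbp, 743 and 642 with each cell weighted equally, 64 and 46 with cells thinned to 5476 UMIs (25 KO and 23 WT members deep enough), and 164 lower without the deepest barcode of each library. They were 1034 and 689 from 20 UMIs per gene, 26 and 23 from 200, and 112 and 52 at 2-fold, since these limits change which genes are counted. S100a8 was at least 693-fold lower among members with Ppbp and 93.0-fold among those under 5% neutrophil UMIs, where WT held fewer UMIs.

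The log2 ratio of these genes changed sign, and the cause was not tested. With each cell weighted equally, Ltbp1 stood at 1.09, Ralgapa2 at 0.25, Gfi1b at -0.042, Treml1 at 0.35, P2ry1 at 0.80, Slc35d3 at 0.0047, Rab27b at 1.10, Timp3 at 1.81, Dusp1 at -0.21 and Fos at -0.49, and the immune-type megakaryocyte list median at -0.12. Without the deepest barcodes of both libraries Treml1 stood at 0.12, Rab27b at 0.13 and Timp3 at 0.67, and without that of WT alone at 0.68, 0.37 and 0.95. Thinned, Gfi1b stood at -0.90 and Timp3 at 0.62. Mpo stood at -0.18 with 5 or more Pf4 and 2 or more Itga2b UMIs. With Ppbp, P2ry1 stood at 0.045 and Ddx3y at -0.23, and without Ppbp, Hist1h2ae at 0.050 and Gng11 at -0.052. Under 5% neutrophil UMIs, Camp stood at 0.21 and Ngp at 0.61.

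No paired analysis was possible because each genotype is 1 library. Counting few UMIs in few barcodes limits what these levels show, and a single deep barcode can set a gene's ratio.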
